A study of Drosophila melanogaster with 15 samples.

Results

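Gene expression was compared between midgut progenitor cells labelled as overexpressing Nicd, the intracellular domain of Notch, and midgut progenitor cells labelled as overexpressing dpn. The comparison took 6 of the 15 libraries of the series, 3 of Nicd OE (Nicd overexpressed) and 3 of dpn OE (dpn overexpressed), where OE stands for overexpression. Cells of both groups came from midguts of adult Drosophila melanogaster on day 7. Midguts were digested with elastase, and about 10000 cells carrying green fluorescent protein were collected per sample by flow sorting, per the labels. The RNA was isolated (PicoPure kit), amplified (RiboAmp HS PLUS kit) and sequenced on an Illumina instrument. The labels give no driver line, transgene construct, batch or sorting day, and do not say whether replicates were separate flies or sorts. P-values therefore measure the spread between these libraries alone, which may be technical. Of 17558 genes in the table, 7092 reached 1 FPKM (a fragment count relative to transcript length and library size) in at least 3 of the 6 libraries and were tested.

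Notch is a cell surface receptor that is cut after binding a ligand such as Delta on a neighbouring cell. The released intracellular domain enters the nucleus and, with the factor Su(H), switches on target genes, among them the bHLH repressors of the Enhancer of split complex, written E(spl). Deadpan, the product of dpn, is a repressor of the same HES family that is best known from neural stem cells of the fly brain. In the adult midgut, intestinal stem cells express Delta and divide, and Notch signalling in their daughters favours the enteroblast, which becomes an absorptive enterocyte. The second differentiated class, the enteroendocrine cell, expresses prospero (pros) and secretes peptide hormones.

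The genes named in the labels were examined first. N, the gene of the Notch receptor from which Nicd derives, was listed at 17.2, 19.1 and 29.1 FPKM in the Nicd OE libraries, against 30.2, 43.0 and 42.6 FPKM in the dpn OE libraries. As deposited, the 2 groups did not overlap, and N was lower, not higher, in the libraries labelled Nicd OE. They were also below the 41.9 to 76.3 FPKM of the Ctrl libraries (wild type), so the N reads as deposited do not bear out the label. Nicd OE is used below for the libraries so labelled. The table has 1 value per gene, so reads of a transgene with only the intracellular part cannot be told from reads of the whole gene. The log2 difference of N, Nicd OE minus dpn OE on log2(FPKM + 1), was -0.81 ± 0.26 (limma, adjusted p = 0.014). Its call was lost without Nicd OE replicate 2 (-0.74), dpn OE replicate 2 (-0.73) or dpn OE replicate 3 (-0.74), with adjusted p of 0.055 to 0.063. The difference was 0.40 ± 0.19 (adjusted p = 0.090) after the libraries were scaled to a common median, so the direction of N depended on the scaling. As deposited, the fall of N was smaller than the median difference of -1.04 over all genes tested.

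The level of dpn was low in both groups. It was 0.774, 1.75 and 3.42 FPKM in Nicd OE, against 6.48, 7.16 and 4.65 FPKM in dpn OE and 1.45 to 2.91 FPKM in Ctrl. The dpn OE libraries were the higher ones without overlap, with a log2 difference of -1.33 ± 0.31 (adjusted p = 0.0021) as deposited and -0.42 ± 0.25 (adjusted p = 0.18) with a common median. Exons of dpn share 59.3% of their bases with other genes, which can affect its count. The libraries labelled as overexpressing seq together with Nicd, which entered no test here, held 167 to 296 FPKM of dpn. The dpn reads in the dpn OE libraries were thus above Ctrl but far below those in libraries with another label, so they bear out the label only weakly, and dpn OE is used below for the libraries so labelled. Whether labels or columns were exchanged was not tested. seq was listed at 0 throughout these 6 libraries, and 100% of its exon bases are shared with other genes, so it checks no label. ttk, the gene of a repressor named in another label of the series, gave a log2 difference of -0.53 ± 0.26 (adjusted p = 0.084) as deposited and was higher in Nicd OE by 0.66 ± 0.16 (adjusted p = 0.0082) with a common median.

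The 2 groups differed over most of the transcriptome, and the scaling of the libraries decided the direction for many genes. The estimated depth was 26.9 to 34.0 (in units of 1e6 reads) in Nicd OE and 25.9 to 33.4 in dpn OE. The share of reads assigned to genes was 33.7%, 34.3% and 48.5% in Nicd OE, against 60.8%, 63.2% and 61.5% in dpn OE. The median of the genes tested was 3.06 to 4.86 FPKM in Nicd OE and 8.27 to 9.54 FPKM in dpn OE, and 5563 to 6293 genes reached 1 FPKM in Nicd OE against 7031 to 7137 in dpn OE. Correlations of log2 values were 0.970 to 0.984 within Nicd OE, 0.976 to 0.987 within dpn OE and 0.844 to 0.862 between the groups.

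With FPKM as deposited, 535 genes (7.54% of those tested) were called higher and 4939 (69.6%) lower in Nicd OE at an adjusted p under 0.05, together 77.2%, and the median log2 difference was -1.04. The 3 Nicd OE libraries lay above the 3 dpn OE libraries without overlap for 8.08% of genes and below them for 69.8%. With the libraries scaled to a common median, 2158 genes (30.4%) were called higher and 2358 (33.2%) lower, together 63.7%, and the median difference was -0.05. The 535 genes called higher as deposited were all among those called higher with a common median, and the 2358 called lower with a common median were all among those called lower as deposited. These 535 and 2358 genes are called higher and lower with both scalings below, and 272 genes (3.84%) were called lower as deposited and higher with a common median. Each count of list members below stands beside these shares of all genes, 7.54% higher and 33.2% lower with both. Of the genes tested, 132 reached 1 FPKM in Nicd OE and in no dpn OE library, and 131 of them were higher with both scalings. In turn, 859 reached 1 FPKM in dpn OE and in no Nicd OE library, and 703 of them were lower with both. The filter on low values lets such genes in through the group where they are high, so the counts and medians of tested members given below describe the lists and are no independent support. Less RNA per cell and fewer cells of a type cannot be told apart in bulk libraries such as these. By the estimated depth, FPKM as deposited are relative to all reads, whether assigned to genes or not. They summed to 2.59e+05 to 3.42e+05 in Nicd OE and 4.54e+05 to 4.81e+05 in dpn OE. With libraries scaled to an equal sum, the median log2 difference was -0.50. The part of the smaller assigned share in the general shift was not tested.

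**Figure D1:**
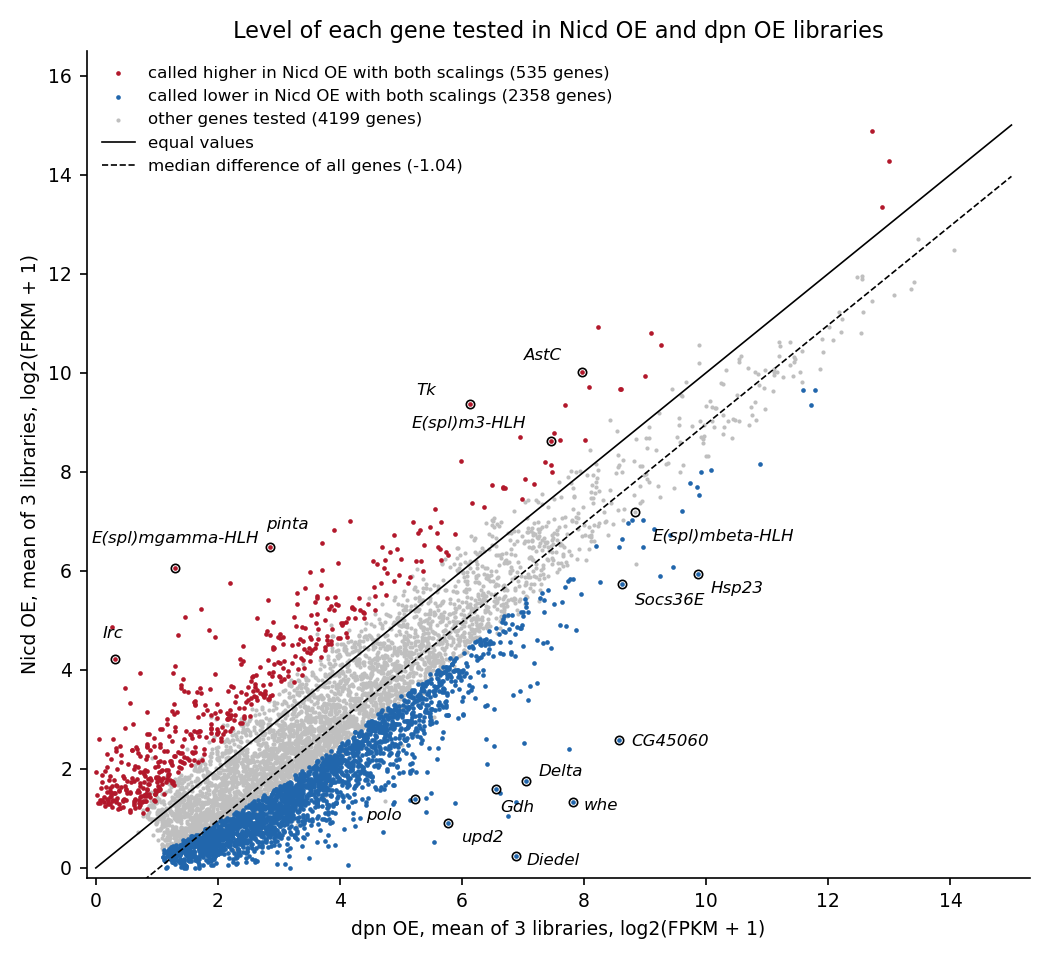
Mean log2(FPKM + 1) of each of the 7092 genes tested, Nicd OE (vertical axis, 3 libraries) against dpn OE (horizontal axis, 3 libraries). Most genes lie below the line of equal values, around the dashed line at the median difference of -1.04. E(spl)mgamma-HLH, Irc, pinta and Tk stand far above both lines, and Diedel, whe, CG45060, Delta, Gdh and upd2 far below.

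Among genes called with both scalings that reached a mean of 10 FPKM in the higher group, the largest rise on the log2(FPKM + 1) scale was that of E(spl)mgamma-HLH, a Notch target. Among the largest falls was that of Delta, the Notch ligand. E(spl)mgamma-HLH (3R:25999851-26000761 in the BDGP6.54 annotation) was at 60.1, 61.8 and 75.9 FPKM in Nicd OE, against 1.44, 1.46 and 1.48 FPKM in dpn OE. Its log2 difference was 4.76 ± 0.21 (adjusted p = 5.1e-07) as deposited and 5.71 ± 0.14 with a common median. Delta (3R:19302731-19326217) was at 1.15, 1.85 and 5.35 FPKM in Nicd OE, against 148, 149 and 104 FPKM in dpn OE. The log2 difference of Delta was -5.29 ± 0.36 (adjusted p = 3.6e-06) as deposited and -4.23 ± 0.29 with a common median.

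The other large rises covered an antioxidant enzyme, a retinoid-binding protein, a peptide hormone and several genes of no named function. Irc (3R:17002875-17007208), a secreted catalase of the gut that limits oxidative damage during infection, was at 16.7, 15.2 and 21.9 FPKM in Nicd OE, against 0.258, 0.223 and 0.238 FPKM in dpn OE. pinta (3R:22423316-22424929), a retinoid-binding protein known from vision, was at 75.1, 104 and 86.7 FPKM in Nicd OE, against 6.96, 6.21 and 5.63 FPKM in dpn OE. The noncoding RNA lncRNA:CR44272 (2R:7992196-7992567) was at 30.7, 15.1 and 47.3 FPKM in Nicd OE, against 0.311, 0.307 and 0 FPKM in dpn OE. The log2 differences as deposited were 3.92 ± 0.20 for Irc, 3.62 ± 0.22 for pinta and 4.60 ± 0.35 for lncRNA:CR44272. lncRNA:CR44538, CG10433, CG12780, acs, CG5758 and CG11155 rose by 2.95 to 3.61, and the hormone gene Tk and the vesicle gene IA-2 are described with their groups. CG10433 shares 20.8% of its exon bases with other genes. These rises are against dpn OE, not Ctrl. The Ctrl range overlapped Nicd OE for lncRNA:CR44272 (19.9 to 29.8 FPKM) and CG12780 (7.18 to 49.2 FPKM). It also did for Tk (581 to 2748 FPKM) and IA-2 (113 to 521 FPKM). For the other genes of this paragraph Ctrl lay below each Nicd OE library, as with Irc (0.348 to 0.400 FPKM) and pinta (8.25 to 10.7 FPKM).

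Diedel (3R:29493852-29494267), a small secreted protein known to dampen immune signalling, had the largest fall among the same genes on that scale. It was at 0.0861, 0 and 0.494 FPKM in Nicd OE, against 105, 140 and 109 FPKM in dpn OE, and the Ctrl libraries (0 to 0.188 FPKM) were as low as those of Nicd OE. Its log2 difference was -6.65 ± 0.24 (adjusted p = 1.2e-07) as deposited and -5.94 ± 0.20 with a common median. Gdh, the mitochondrial enzyme glutamate dehydrogenase, was at 1.90, 1.46 and 2.79 FPKM in Nicd OE, against 86.2, 106 and 88.2 FPKM in dpn OE, with 8.92 to 25.4 FPKM in Ctrl. Its log2 difference was -4.97 ± 0.23 as deposited and -3.90 ± 0.17 with a common median. CG45060, CG45061 and CG43218 fell by 6.0, 5.33 and 4.58 as deposited. CG45060 and CG45061 are neighbours on the X chromosome, at X:9868068-9868568 and X:9871098-9871702.

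The remaining 5 large falls varied together between libraries of the same group. whe was at 14.9, 0 and 0 FPKM in Nicd OE, against 276, 96.2 and 425 FPKM in dpn OE. CG16826, CG45080, CG34212 and CG33109 had the same pattern, at 1.96 to 15.7 FPKM in Nicd OE replicate 1, at most 0.265 FPKM in Nicd OE replicates 2 and 3, and lowest of dpn OE in replicate 2. Their log2 differences as deposited, from -6.49 ± 0.91 for whe to -5.01 ± 0.55 for CG33109, had the widest errors of the 12 largest falls. The call of CG34212 with a common median was lost without Nicd OE replicate 2 (-3.37), Nicd OE replicate 3 (-3.29) or dpn OE replicate 3 (-3.56), with adjusted p of 0.053 to 0.060. After that scaling the groups overlapped for CG34212. These genes also varied within Ctrl. There whe spanned 0.120 to 329 FPKM, CG16826 0 to 109 FPKM and CG45080 0.559 to 181 FPKM. CG34212 spanned 0.364 to 206 FPKM and CG33109 0 to 9.04 FPKM.

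Of the HES family, 7 members were tested, and 3 were higher and 1 lower in Nicd OE with both scalings. The 3 higher members were all bHLH repressors of the E(spl) complex. E(spl)m3-HLH was at 378, 368 and 440 FPKM in Nicd OE, against 203, 183 and 141 FPKM in dpn OE, a log2 difference of 1.18 ± 0.21 as deposited and 2.43 ± 0.17 with a common median. E(spl)m7-HLH was at 8.36, 6.34 and 9.54 FPKM in Nicd OE, against 1.10, 1.28 and 1.77 FPKM in dpn OE, a log2 difference of 1.92 ± 0.22 as deposited and 2.81 ± 0.20 with a common median. In both genes, as in E(spl)mgamma-HLH, each Nicd OE library was above each dpn OE library.

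E(spl)mbeta-HLH went the other way as deposited. It was at 135, 139 and 161 FPKM in Nicd OE, against 499, 477 and 402 FPKM in dpn OE, without overlap. Its log2 difference was -1.66 ± 0.20 (adjusted p = 2.9e-05) as deposited and -0.40 ± 0.16 (adjusted p = 0.054) with a common median. hry (hairy), a repressor outside the complex, was at 9.93, 12.1 and 25.7 FPKM in Nicd OE, against 54.2, 61.8 and 43.2 FPKM in dpn OE. The log2 difference of hry was -1.77 ± 0.32 as deposited and -0.56 ± 0.20 with a common median. The common-median call of hry was lost without Nicd OE replicate 1 (-0.45), Nicd OE replicate 2 (-0.46), dpn OE replicate 1 (-0.58) or dpn OE replicate 2 (-0.48), with adjusted p of 0.078 to 0.13. The clock repressor cwo was called lower as deposited (-0.77 ± 0.27) and higher with a common median (0.45 ± 0.16). Those calls of cwo were lost without either of Nicd OE replicates 1 and 2 or dpn OE replicates 1 and 2 as deposited (-0.73 to -0.62), and without any library but Nicd OE replicate 2 with a common median (0.33 to 0.46).

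Against Ctrl, the E(spl) genes had different positions. E(spl)mgamma-HLH was at 3.92 to 6.99 FPKM in Ctrl, between both groups. E(spl)m3-HLH was at 345 to 1122 FPKM and E(spl)m7-HLH at 21.8 to 37.7 FPKM in Ctrl, so that E(spl)m7-HLH was lower in each Nicd OE and dpn OE library than in each Ctrl library. In the libraries labelled as overexpressing seq together with Nicd, E(spl)mgamma-HLH was at 269.8 to 293 FPKM and E(spl)m3-HLH at 18.6 to 44.0 FPKM.

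Members of the Bearded family, small proteins that curb Delta endocytosis and are in part encoded in the same complex, were likewise split. E(spl)m6-BFM was at 5.23, 3.0 and 4.70 FPKM in Nicd OE, against 0.475, 0.368 and 0.711 FPKM in dpn OE, a log2 difference of 1.79 as deposited and 2.48 with a common median. E(spl)m2-BFM was at 2.47, 1.94 and 4.66 FPKM in Nicd OE, against 1.41, 0.636 and 1.35 FPKM in dpn OE, a log2 difference of 0.88 as deposited and 1.64 with a common median. E(spl)malpha-BFM, the most abundant of the 3 tested, was lower, at 153, 167 and 243 FPKM in Nicd OE, against 930, 997 and 898 FPKM in dpn OE. Its log2 difference was -2.35 as deposited and -1.09 with a common median, and each of these 6 differences was called. So within 1 gene complex, E(spl)mgamma-HLH, E(spl)m3-HLH, E(spl)m7-HLH, E(spl)m6-BFM and E(spl)m2-BFM were higher in Nicd OE with both scalings, and E(spl)malpha-BFM was lower.

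**Figure D2:**
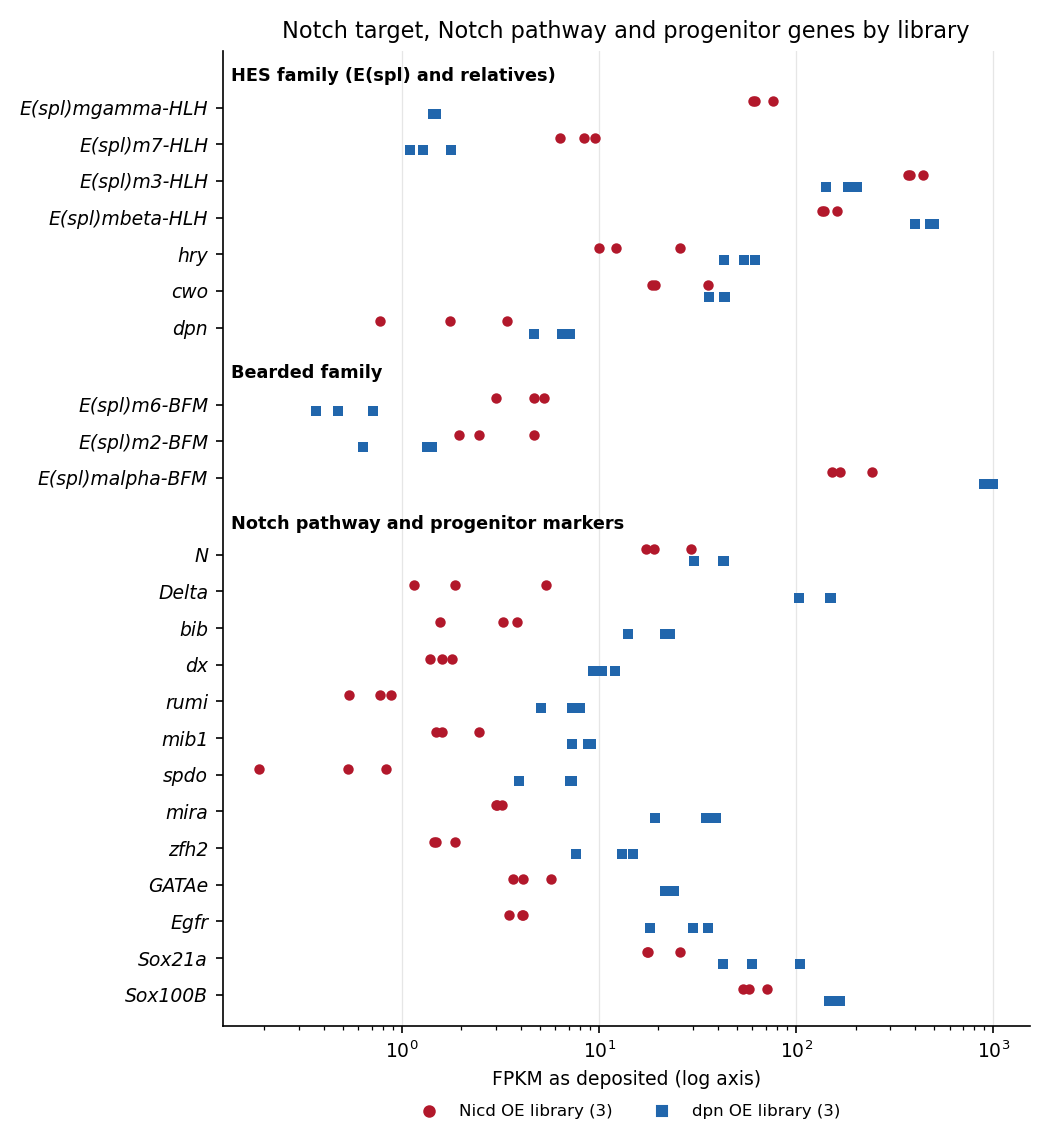
FPKM as deposited (log axis) of HES family, Bearded family, Notch pathway and progenitor genes in each library, with Nicd OE circles above dpn OE squares in each row. E(spl)mgamma-HLH, E(spl)m7-HLH, E(spl)m3-HLH, E(spl)m6-BFM and E(spl)m2-BFM stand higher in Nicd OE, and E(spl)malpha-BFM, Delta and the progenitor genes stand lower.

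Of genes of the Notch pathway itself, 22 were tested of 23 matched. In Nicd OE 7 were lower with both scalings, a share near the 33.2% of all genes, and with a common median alone 10 were higher. With both scalings 1 was higher, a count that was 0 without Nicd OE replicate 2, dpn OE replicate 2 or dpn OE replicate 3. Over the 22 the median log2 difference was -0.71 as deposited and 0.35 with a common median, above the medians of all genes on both scales. The 7 lower members are described here and the 10 called higher with a common median are not, so the 7 do not stand for the pathway. Besides Delta, mib1 encodes a ubiquitin ligase that activates ligands and was at 1.49 to 2.45 FPKM in Nicd OE, against 7.30 to 9.08 FPKM in dpn OE. rumi, an enzyme that adds glucose to the receptor, was at 0.537 to 0.880 FPKM in Nicd OE, against 5.07 to 7.97 FPKM in dpn OE. dx (Deltex), which regulates receptor trafficking, was at 1.39 to 1.78 FPKM in Nicd OE, against 9.31 to 11.97 FPKM in dpn OE. Those 3 fell by 1.73, 2.16 and 2.15 as deposited, and their differences with a common median were -0.75, -1.32 and -1.17.

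The channel-like protein gene bib was at 1.56 to 3.83 FPKM in Nicd OE, against 14.1 to 22.9 FPKM in dpn OE. spdo (sanpodo), which assists Notch in asymmetric divisions, was at 0.189 to 0.830 FPKM in Nicd OE, against 3.93 to 7.25 FPKM in dpn OE. pen-2, a subunit of the gamma-secretase that releases the intracellular domain, was at 0.425 to 1.24 FPKM in Nicd OE, against 3.40 to 5.19 FPKM in dpn OE, but 47.8% of its exon bases are shared with other genes. With a common median the differences of these 3 genes were -1.36, -1.48 and -0.82, each called.

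The median of genes of asymmetric division lay above that of all genes, and mira and loco had large falls. Of 19 tested of 20 matched, 2 were lower and 2 higher in Nicd OE with both scalings, and none of the 19 was called higher as deposited without dpn OE replicate 1, 2 or 3, and 1 without Nicd OE replicate 2 or 3. Over the 19 the median log2 difference was -0.75 as deposited and 0.30 with a common median, against -1.04 and -0.05 over all genes. With a common median 9 of the 19 were called higher, where 30.4% of all genes were. The 2 lower with both scalings compare with 33.2% of all genes. mira (Miranda), which carries fate determinants to the daughter in a dividing neural stem cell, was at 2.99, 3.04 and 3.22 FPKM in Nicd OE, against 34.9, 39.1 and 19.2 FPKM in dpn OE, a log2 difference of -2.91 ± 0.27 as deposited and -1.80 ± 0.22 with a common median. loco, a regulator of G protein signalling, was at 7.37, 7.10 and 13.1 FPKM in Nicd OE, against 84.8, 77.9 and 89.9 FPKM in dpn OE, a log2 difference of -3.11 ± 0.26 as deposited and -1.91 ± 0.17 with a common median. The spindle orientation genes insc and pins were called lower as deposited, by -1.76 and -1.39, but not with a common median (-0.58 and -0.21).

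Most markers of midgut progenitors were lower in Nicd OE than in dpn OE. Of 11 tested of 12 matched, 10 were called lower as deposited and 6 with both scalings, and none was higher with both. With a common median alone, 1 of the 11 was called higher, and it is not among the genes named here. The median log2 difference was -2.13 as deposited and -1.0 with a common median, against -1.04 and -0.05 over all genes. GATAe, a GATA factor of the midgut, was at 4.12, 3.65 and 5.69 FPKM in Nicd OE, against 24.0, 21.7 and 22.7 FPKM in dpn OE, a log2 difference of -2.13 as deposited and -1.0 with a common median. Egfr, the receptor that drives stem cell division, was at 4.07, 3.49 and 4.09 FPKM in Nicd OE, against 30.1, 35.9 and 18.2 FPKM in dpn OE, a log2 difference of -2.52 as deposited and -1.39 with a common median. The zinc finger gene zfh2 differed by -2.26 as deposited and -1.27 with a common median, with 18.7% of its exon bases shared with other genes. Delta, mira and spdo, described above, are the other 3 called with both scalings.

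The progenitor markers Sox21a, Sox100B and fkh did not separate from the general shift. The Sox factors Sox21a and Sox100B, which act in progenitor differentiation, were called lower as deposited (-1.63 and -1.38) but not with a common median, where they differed by -0.41 ± 0.32 and -0.13 ± 0.16. The forkhead gene fkh differed by -1.27 as deposited and -0.02 with a common median, where it was not called. The summed level of 9 matched progenitor markers of a marker set was 99.9 to 131 FPKM in Nicd OE, against 400 to 532 FPKM in dpn OE. RNA of these markers was thus present in both groups. GATAe of this set is also on the list of enterocyte identity genes, so the sum does not establish the identity given in the labels. esg, a further progenitor marker, was not matched by symbol in the table and is not analysed here.

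Of peptide hormones of enteroendocrine cells, 11 were tested of 14 matched, and 5 were higher in Nicd OE with both scalings and none was lower with both. NPF and ITP were called lower as deposited, and 4 hormones were without Nicd OE replicate 3. Another 4 of the 11 were not called with all libraries as deposited, and 1 of them was called higher with a common median. The list had a median log2 difference of -0.10 as deposited and 0.80 with a common median. Tk (tachykinin, 3R:11994175-12005473) was at 704, 706 and 583 FPKM in Nicd OE, against 62.5, 70.4 and 73.5 FPKM in dpn OE, a log2 difference of 3.25 ± 0.20 (adjusted p = 2.5e-06) as deposited and 4.5 ± 0.25 with a common median. AstC (allatostatin C) was at 722, 931 and 1613 FPKM in Nicd OE, against 308, 195 and 260 FPKM in dpn OE, a log2 difference of 2.04 ± 0.30 as deposited and 3.29 ± 0.23 with a common median. These 2 hormones mark different classes of enteroendocrine cells, and both were higher in each Nicd OE library than in each dpn OE library.

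CCHa1 was at 39.8, 29.3 and 102 FPKM in Nicd OE, against 9.59, 9.90 and 9.61 FPKM in dpn OE, a log2 difference of 2.23 as deposited and 3.41 with a common median. CCHa2 was at 73.3, 69.3 and 79.3 FPKM in Nicd OE, against 32.9, 18.2 and 28.4 FPKM in dpn OE, a log2 difference of 1.48 as deposited and 2.71 with a common median. Orcokinin was at 776, 770 and 919 FPKM in Nicd OE, against 442, 299 and 448 FPKM in dpn OE, a log2 difference of 1.07 as deposited and 2.33 with a common median. NPF (neuropeptide F), which is made in Tk cells, stood apart from these 5 hormones. It was at 786, 703 and 1323 FPKM in Nicd OE, against 3000.1, 2455 and 3852 FPKM in dpn OE. NPF was called lower as deposited (-1.76 ± 0.26) and did not pass the test with a common median (-0.50 ± 0.26, adjusted p = 0.13). ITP, an ion transport peptide, was likewise called lower as deposited (-1.26) but not with a common median (-0.12).

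The summed level of 10 enteroendocrine markers as deposited was 3036 to 4590 FPKM in Nicd OE and 3046 to 4664 FPKM in dpn OE. That sum, of which NPF holds a large part, overlapped between the groups as deposited. With a common median, the 14 hormones matched summed to 5066 to 5881 FPKM in Nicd OE, against 1863 to 3288 FPKM in dpn OE, without overlap. pros, the factor that defines the class, was at 1.27, 1.496 and 2.03 FPKM in Nicd OE, against 0.529, 0.523 and 0.628 FPKM in dpn OE, a log2 difference of 0.73 ± 0.15 as deposited and 1.32 ± 0.10 with a common median. It was the 1 gene of 5 tested of 18 matched proneural and endocrine fate factors that was higher with both scalings, and none was lower with both. pros was under 1 FPKM in each dpn OE library and so passed the filter through Nicd OE alone. In Ctrl, Tk was at 581 to 2748 FPKM, AstC at 1355 to 3715 FPKM and NPF at 6827 to 55989 FPKM, so that Tk and AstC were lower in each dpn OE library than in each Ctrl library.

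Of genes of the machinery that releases hormone and transmitter vesicles, 19 were tested of 24 matched, and 14 were higher in Nicd OE and none lower with both scalings. Of these 14, 7 reached 1 FPKM in Nicd OE and in no dpn OE library. With a filter of 5 FPKM, 9 were tested and 5 were called higher as deposited, and without a filter 17 of the 24 were, with none lower under either. Over these 19 the median log2 difference was 0.87 as deposited and 1.56 with a common median. IA-2 (2L:1008378-1048053), a membrane protein of dense-core vesicles, was at 88.3, 94.6 and 170 FPKM in Nicd OE, against 16.0, 11.7 and 14.4 FPKM in dpn OE, a log2 difference of 2.93 ± 0.28 as deposited and 4.13 ± 0.18 with a common median. Sytalpha, of the synaptotagmin family, was at 6.18, 7.66 and 15.1 FPKM in Nicd OE, against 0.786, 0.310 and 0.366 FPKM in dpn OE, a log2 difference of 2.76 as deposited and 3.49 with a common median. The synaptotagmin genes Syt7, Sytbeta and Syt1 rose by 2.04, 1.41 and 0.87 as deposited, and by 2.66, 2.46 and 1.41 with a common median. Synaptotagmins bind calcium or lipid and time vesicle fusion. The SNARE gene nSyb, the active zone gene brp, the SNARE regulator Rop and the complexin gene cpx rose by 1.31, 1.23, 0.91 and 0.82 as deposited.

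Of neuronal genes, 12 were tested of 27 matched, and 7 were higher in Nicd OE with both scalings and 1 was lower, a call with a common median that was lost without any 1 library but Nicd OE replicate 2. The 12 had a median log2 difference of 0.86 as deposited and 1.61 with a common median. Without a filter the median as deposited was 0.18, and 12 were called higher. With a filter of 5 FPKM, 7 were tested, 3 were called higher and 1 lower, and the median was 0.40. nrv3, a sodium pump subunit of neurons, was at 43.3, 43.0 and 128 FPKM in Nicd OE, against 11.9, 9.07 and 10.4 FPKM in dpn OE, a log2 difference of 2.47 as deposited and 3.65 with a common median. Appl, the fly orthologue of the amyloid precursor protein, was at 8.19 to 10.4 FPKM in Nicd OE, against 1.84 to 2.22 FPKM in dpn OE. The RNA-binding protein gene bru3 and the neurexin gene Nrx-1 rose by 1.35 and 1.08 as deposited, at 1.46 to 3.30 FPKM in Nicd OE, against 0.245 to 0.520 FPKM in dpn OE, so these 2 passed the filter through Nicd OE alone. Of 9 tested genes of a list of neuroblast timing factors, 4 were higher and 1 lower with both scalings, and 2 were higher without Nicd OE replicate 2 or any 1 dpn OE library.

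Neuronal genes are long, and length moved with the result. Exon length had a median of 8730 bases in the neuronal genes tested and 3997 in the vesicle genes, against 1940 over all genes. With a common median, the fifth of all genes with the longest exons had a median log2 difference of 0.30, and that with the shortest of -0.17. The part of length in the differences of the lists was not tested.

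**Figure D3:**
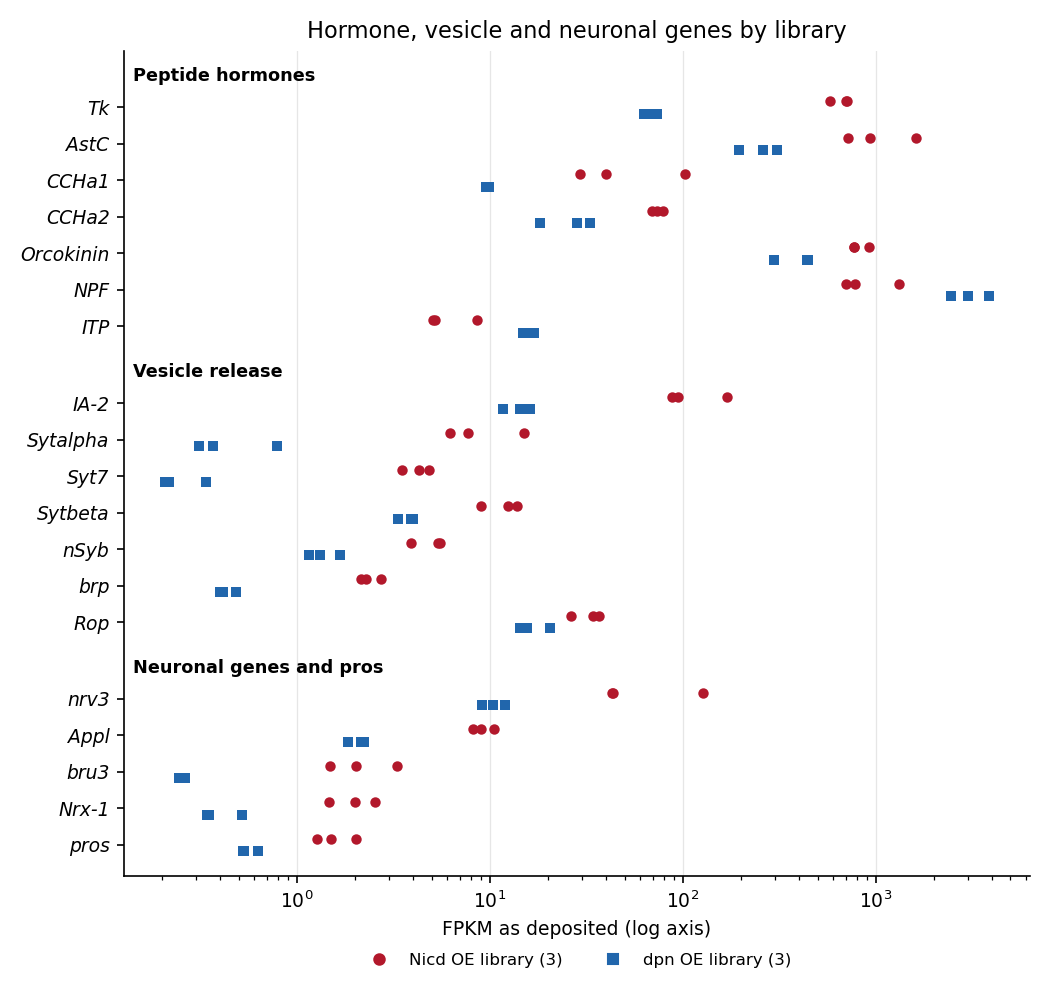
FPKM as deposited (log axis) of peptide hormones, vesicle genes, neuronal genes and pros in each library, with Nicd OE circles above dpn OE squares in each row. In every row but NPF and ITP the 3 Nicd OE libraries lie above the 3 dpn OE libraries.

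Cell cycle genes were lower in Nicd OE. Of 47 tested of 51 matched, 41 were lower as deposited, 38 with both scalings, and none was higher with both. Of these 38, 15 reached 1 FPKM in dpn OE and in no Nicd OE library. With a filter of 5 FPKM, 32 were tested and 29 were called lower as deposited. The median log2 difference was -2.12 as deposited and -1.14 with a common median, against -1.04 and -0.05 over all genes. The mitotic kinase polo was at 0.818, 1.75 and 2.56 FPKM in Nicd OE, against 33.2, 37.6 and 38.5 FPKM in dpn OE, a log2 difference of -3.84 ± 0.26 (adjusted p = 3.6e-06) as deposited and -2.83 ± 0.20 with a common median. Cdk1, the kinase that starts mitosis, was at 1.26, 1.03 and 2.77 FPKM in Nicd OE, against 32.2, 41.8 and 30.6 FPKM in dpn OE, a log2 difference of -3.78 ± 0.27 as deposited and -2.77 ± 0.20 with a common median. PCNA, the sliding clamp of DNA replication, was at 1.64, 2.25 and 5.54 FPKM in Nicd OE, against 39.4, 38.4 and 33.0 FPKM in dpn OE, a log2 difference of -3.30 ± 0.31 as deposited and -2.22 ± 0.23 with a common median. In Ctrl, polo was at 4.42 to 12.2 FPKM and Cdk1 at 8.05 to 20.7 FPKM, between the 2 groups.

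The lower genes covered each phase of the cycle. Among replication genes, Mcm6 of the replicative helicase and the ribonucleotide reductase subunits RnrL and RnrS fell by 3.0, 2.86 and 2.51 as deposited, with differences of -1.98, -1.87 and -1.31 at a common median. geminin, an inhibitor of origin licensing, and the G1 kinase gene Cdk4 fell by 2.92 and 2.94 as deposited. The cyclins CycA and CycB and the Cdc25 phosphatase stg, which acts before mitosis, fell by 2.50, 2.04 and 1.90. The spindle and kinetochore genes Incenp, Ndc80 and BubR1 fell by 2.37, 2.34 and 2.26. With a common median 5 genes were called higher, among them the G1 regulators E2f1 and CycD. Their differences as deposited were 0.23 ± 0.25 and 0.29 ± 0.31, neither called, and with a common median they were higher by 1.43 and 1.33. None of these 5 was called as deposited.

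Of the JAK/STAT pathway, through which damaged gut cells stimulate stem cells, 9 genes were tested of 14 matched. The 9 were lower as deposited, and 3 were lower with both scalings, a share near the 33.2% of all genes. Their median log2 difference was -1.18 as deposited and -0.09 with a common median, near the -1.04 and -0.05 of all genes. upd2, a cytokine that activates the pathway, was at 0.652, 0.524 and 1.65 FPKM in Nicd OE, against 45.2, 67.3 and 51.2 FPKM in dpn OE, with 59.9 to 259.7 FPKM in Ctrl. Its log2 difference was -4.86 ± 0.27 (adjusted p = 1.2e-06) as deposited and -3.94 ± 0.22 with a common median. Socs36E, a feedback inhibitor that the pathway itself induces, was at 44.1, 49.4 and 64.1 FPKM in Nicd OE, against 460, 418 and 314 FPKM in dpn OE, a log2 difference of -2.89 ± 0.23 as deposited and -1.64 ± 0.14 with a common median. The transcription factor Stat92E and the receptor dome were not called with a common median, where they differed by -0.09 and -0.02. The cytokine upd3 differed by -2.05 as deposited and -0.82 with a common median, a call lost without Nicd OE replicate 1 (-0.53), Nicd OE replicate 2 (-0.79), dpn OE replicate 2 (-0.79) or dpn OE replicate 3 (-0.67), with adjusted p of 0.11 to 0.15.

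Of the JNK and stress pathway, 17 genes were tested of 21 matched. With both scalings 5 were lower and 2 higher in Nicd OE, against 33.2% lower and 7.54% higher over all genes. The 17 had a median log2 difference of -0.59 as deposited and 0.66 with a common median, against -1.04 and -0.05 over all genes. puc, a phosphatase that JNK induces and that inhibits it, was at 16.7, 23.1 and 32.9 FPKM in Nicd OE, against 132, 153 and 162 FPKM in dpn OE, a log2 difference of -2.62 as deposited and -1.38 with a common median. The adaptor Traf4 was at 1.19, 1.46 and 1.77 FPKM in Nicd OE, against 31.5, 26.8 and 26.2 FPKM in dpn OE, a log2 difference of -3.56 as deposited and -2.55 with a common median. The TNF ligand egr, the ETS factor Ets21C and the kinase Tak1 were also lower, by -1.30, -1.29 and -0.52 with a common median. The JNK kinase hep and the nuclear receptor ftz-f1 were the 2 higher genes, by 1.0 and 1.30 as deposited. Exon bases shared with other genes were 26.8% for Traf4, 28.3% for Ets21C and 29.4% for ftz-f1.

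Of the EGFR pathway, 21 genes were tested of 23 matched. With both scalings 5 were lower and 1 higher, against 33.2% lower and 7.54% higher over all genes. As deposited, 3 were called higher without Nicd OE replicate 1. Besides Egfr, the lower genes were the ligand gene vn, the adhesion molecule gene ed that restrains the receptor, the ETS effector pnt and the kinase Raf. With a common median they differed by -1.98, -2.09, -0.68 and -0.53. The ligand gene spi was called lower as deposited (-1.59) and not with a common median (-0.35). cic, a repressor that receptor signalling relieves, was the higher gene, at 34.7, 41.4 and 45.7 FPKM in Nicd OE, against 14.01, 11.3 and 8.41 FPKM in dpn OE, a log2 difference of 1.78 as deposited and 2.96 with a common median.

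Of cell death genes, 13 were tested of 16 matched. With both scalings 1 was higher and 5 were lower in Nicd OE, against 7.54% higher and 33.2% lower over all genes. The higher gene was rpr (reaper), which triggers apoptosis by blocking the inhibitor Diap1. It was at 1.99, 1.65 and 3.71 FPKM in Nicd OE, against 0.0856, 0.0844 and 0.0332 FPKM in dpn OE, a log2 difference of 1.65 ± 0.20 as deposited and 2.12 ± 0.16 with a common median. Its dpn OE values rest on about 5 reads in all 3 libraries together, so it passed the filter through Nicd OE alone. Diap1 was at 4.33, 3.82 and 4.86 FPKM in Nicd OE, against 49.2, 47.5 and 47.2 FPKM in dpn OE, a log2 difference of -3.20 ± 0.20 as deposited and -2.05 ± 0.16 with a common median. Dronc, the initiator caspase that Diap1 restrains, was lower too, at 5.51, 10.1 and 11.6 FPKM in Nicd OE, against 87.5, 87.0 and 72.8 FPKM in dpn OE. The caspases Dredd and Strica differed by -1.18 and -0.68 with a common median.

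Of genes of growth signals (insulin, Hippo, Wnt and BMP pathways), 29 were tested of 35 matched. With both scalings 7 were lower and 1 was higher, against 33.2% lower and 7.54% higher over all genes. The higher call was lost without dpn OE replicate 3. Among the lower genes, the Wnt receptor fz, the beta-catenin gene arm and the BMP ligand gbb differed by -1.44, -0.76 and -0.85 with a common median. The median of the list was -0.85 as deposited and 0.16 with a common median.

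Of immune genes, 19 were tested of 38 matched, and 8 were lower in Nicd OE and 2 higher with both scalings, where 33.2% of all genes were lower. The median with a common median was -0.21, against -0.05 over all genes. As deposited, 1 in place of 2 was called higher without Nicd OE replicate 2, dpn OE replicate 2 or dpn OE replicate 3. Rel, the NF-kappaB factor of the Imd pathway, was at 20.3, 20.9 and 27.6 FPKM in Nicd OE, against 141, 158 and 210 FPKM in dpn OE, a log2 difference of -2.82 ± 0.24 as deposited and -1.59 ± 0.21 with a common median. pirk, a feedback inhibitor of that pathway, was at 27.8, 37.8 and 62.9 FPKM in Nicd OE, against 144, 212 and 251 FPKM in dpn OE, a log2 difference of -2.26 ± 0.31 as deposited and -1.01 ± 0.26 with a common median. key, a subunit of the kinase complex that activates Rel, differed by -0.88 with a common median. Diedel and Irc, described above, belong to this list and moved in opposite directions.

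Heat shock genes were lower in Nicd OE, with a wide spread in dpn OE. Of 16 tested of 23 matched, 13 were lower as deposited and 8 with both scalings, against 69.6% and 33.2% of all genes. None was higher with both. With a common median alone 2 were called higher, and these 2 are not among the genes named here. The median log2 difference was -2.11 as deposited and -1.05 with a common median, against -1.04 and -0.05 over all genes. The small heat shock protein gene Hsp23 was at 69.1, 48.4 and 64.8 FPKM in Nicd OE, against 2489, 638 and 508 FPKM in dpn OE, a log2 difference of -3.93 ± 0.48 as deposited and -2.68 ± 0.52 with a common median. Hsp68 was at 2.49, 3.81 and 3.68 FPKM in Nicd OE, against 241, 72.3 and 34.0 FPKM in dpn OE, a log2 difference of -4.32 ± 0.54 as deposited and -3.19 ± 0.55 with a common median. In both, dpn OE replicate 1 stood highest, and the 2 groups did not overlap. Hsp26 was called lower as deposited (-2.70 ± 0.59) but not with a common median (-1.45 ± 0.62, adjusted p = 0.071). The chaperone gene Hsp83 and the co-chaperone gene stv differed by -1.41 and -1.39 with a common median. Hsp70Bc differed by -2.93, but the Hsp70 genes have near-identical copies among which reads may have been divided, so single Hsp70 values are uncertain.

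**Figure D4:**
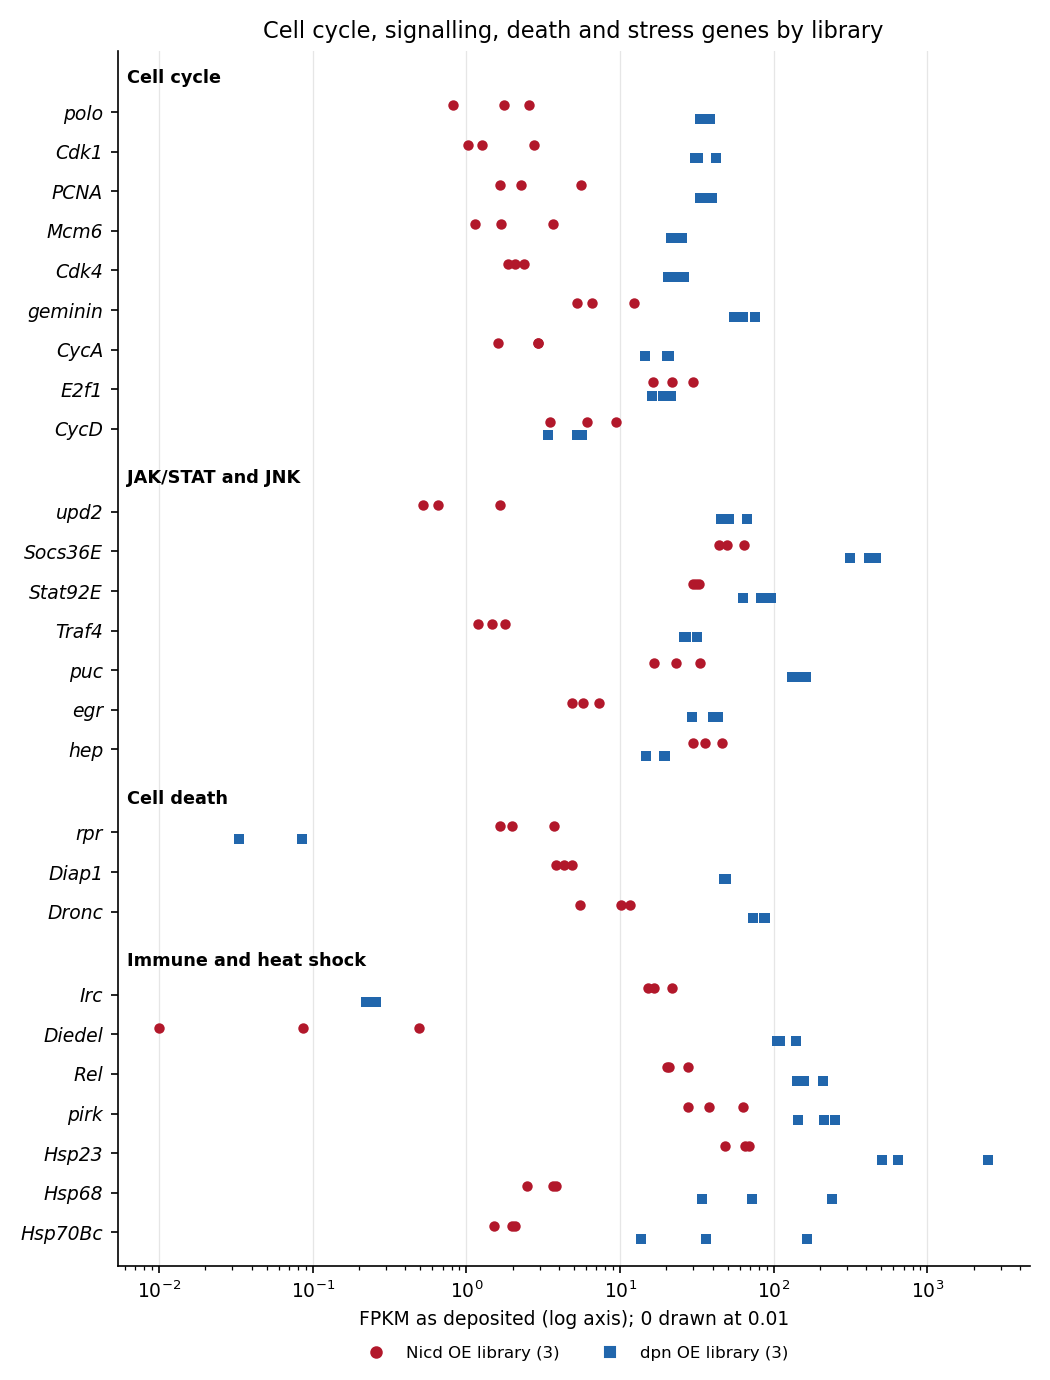
FPKM as deposited (log axis) of cell cycle, JAK/STAT, JNK, cell death, immune and heat shock genes in each library, with Nicd OE circles above dpn OE squares in each row. The squares stand to the right except in E2f1 and CycD, where the groups overlap, and in hep, rpr and Irc, where the circles do.

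Genes of enterocytes showed no common shift with both scalings. Of 12 enterocyte identity genes tested of 16 matched, 1 was higher and 1 lower with both. With a common median 7 of the 12 were called higher, where 30.4% of all genes were. The median log2 difference was -0.53 as deposited and 0.58 with a common median, and 4 were lower as deposited, against 8 without Nicd OE replicate 3. nub, the POU factor that marks enterocytes, was at 1.45, 1.56 and 1.41 FPKM in Nicd OE, against 0.797, 0.685 and 0.454 FPKM in dpn OE, a log2 difference of 0.59 ± 0.14 as deposited and 1.22 ± 0.15 with a common median. As nub was under 1 FPKM in each dpn OE library, it passed the filter through Nicd OE alone. The myosin gene Myo31DF, also used to mark enterocytes, was called lower as deposited (-1.36) but not with a common median (-0.13). Summed over 10 enterocyte markers the level as deposited was 87.4 to 176 FPKM in Nicd OE and 224 to 337 FPKM in dpn OE. The 16 identity genes matched summed to 94.3 to 140 FPKM in Nicd OE, against 200 to 209 FPKM in dpn OE, as deposited. With a common median the order was reversed, at 148 to 182 FPKM in Nicd OE, against 121 to 142 FPKM in dpn OE.

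Of genes for digestive enzymes, 36 were tested of 59 matched, and 4 were higher and 4 lower with both scalings. These counts depended on single libraries. Without Nicd OE replicate 3 or dpn OE replicate 2, 7 were called higher as deposited, and without dpn OE replicate 1, 2 were called lower with a common median. The maltase gene Mal-B1 was at 0.178, 0 and 0 FPKM in Nicd OE, against 2.68, 2.64 and 7.82 FPKM in dpn OE, and the maltase gene Mal-A5 was at 0.0170 to 0.0978 FPKM in Nicd OE, against 1.39 to 2.33 FPKM in dpn OE. A further maltase gene, Mal-A2, was higher, at 3.82 to 4.40 FPKM in Nicd OE, against 1.74 to 2.25 FPKM in dpn OE.

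Junction and adhesion genes included several higher in Nicd OE. Of 32 tested of 35 matched, 6 were higher and 4 lower with both scalings, and 2 were lower with a common median without Nicd OE replicate 2, dpn OE replicate 1 or dpn OE replicate 2. Fas3, a homophilic adhesion protein, was at 2.75 to 5.61 FPKM in Nicd OE, against 0.420 to 0.558 FPKM in dpn OE. The sodium pump subunit nrv1 and the septate junction protein gene Nrx-IV rose by 1.5 and 1.0 as deposited. Of 12 glycolysis genes tested of 13 matched, 1 was higher and 2 were lower with both scalings. The lower count was 1 without Nicd OE replicate 1 or 3 or dpn OE replicate 2 or 3. With a common median 9 of the 12 were called higher, or 5 without dpn OE replicate 1, where 30.4% of all genes were. Their median log2 difference was -0.66 as deposited and 0.57 with a common median, against -1.04 and -0.05 over all genes. Aldolase (Ald1) was at 143, 162 and 194 FPKM in Nicd OE, against 86.4, 73.7 and 56.1 FPKM in dpn OE, and phosphoglycerate kinase (Pgk) at 6.74, 6.87 and 6.95 FPKM in Nicd OE, against 31.7, 34.6 and 29.8 FPKM in dpn OE. Of 9 genes of lipid metabolism, none was called in 1 direction with both scalings.

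Of the basic machinery, genes of the mitochondrial ribosome and the proteasome lay below the general shift, and the medians of cytosolic ribosome and oxidative phosphorylation genes lay near it. Of 70 mitochondrial ribosomal protein genes tested of 71 matched, 69 were lower as deposited and 54 with both scalings, and the median log2 difference was -1.90 as deposited and -0.88 with a common median. Of 78 cytosolic ribosomal protein genes tested of 87 matched, 71 were lower as deposited but 6 with both scalings, and the median was -1.20 as deposited and 0.06 with a common median. Without Nicd OE replicate 1 the count of 6 was 12. With a common median 12 of the 78 were called higher, or 5 without Nicd OE replicate 1, dpn OE replicate 1 or dpn OE replicate 2. Of 31 proteasome genes tested of 48 matched, 31 were lower as deposited and 19 with both scalings, with a median of -1.62 as deposited and -0.45 with a common median. Of 65 genes of oxidative phosphorylation tested of 88 matched, 55 were lower as deposited and 13 with both scalings, with a median of -1.23 as deposited and 0.00 with a common median. That 13 was 8 without Nicd OE replicate 2, dpn OE replicate 2 or dpn OE replicate 3. With a common median 19 of the 65 were called higher, or 12 without dpn OE replicate 2. Of all genes, 69.6% were lower as deposited, 33.2% lower with both scalings and 30.4% higher with a common median.

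**Figure D5:**
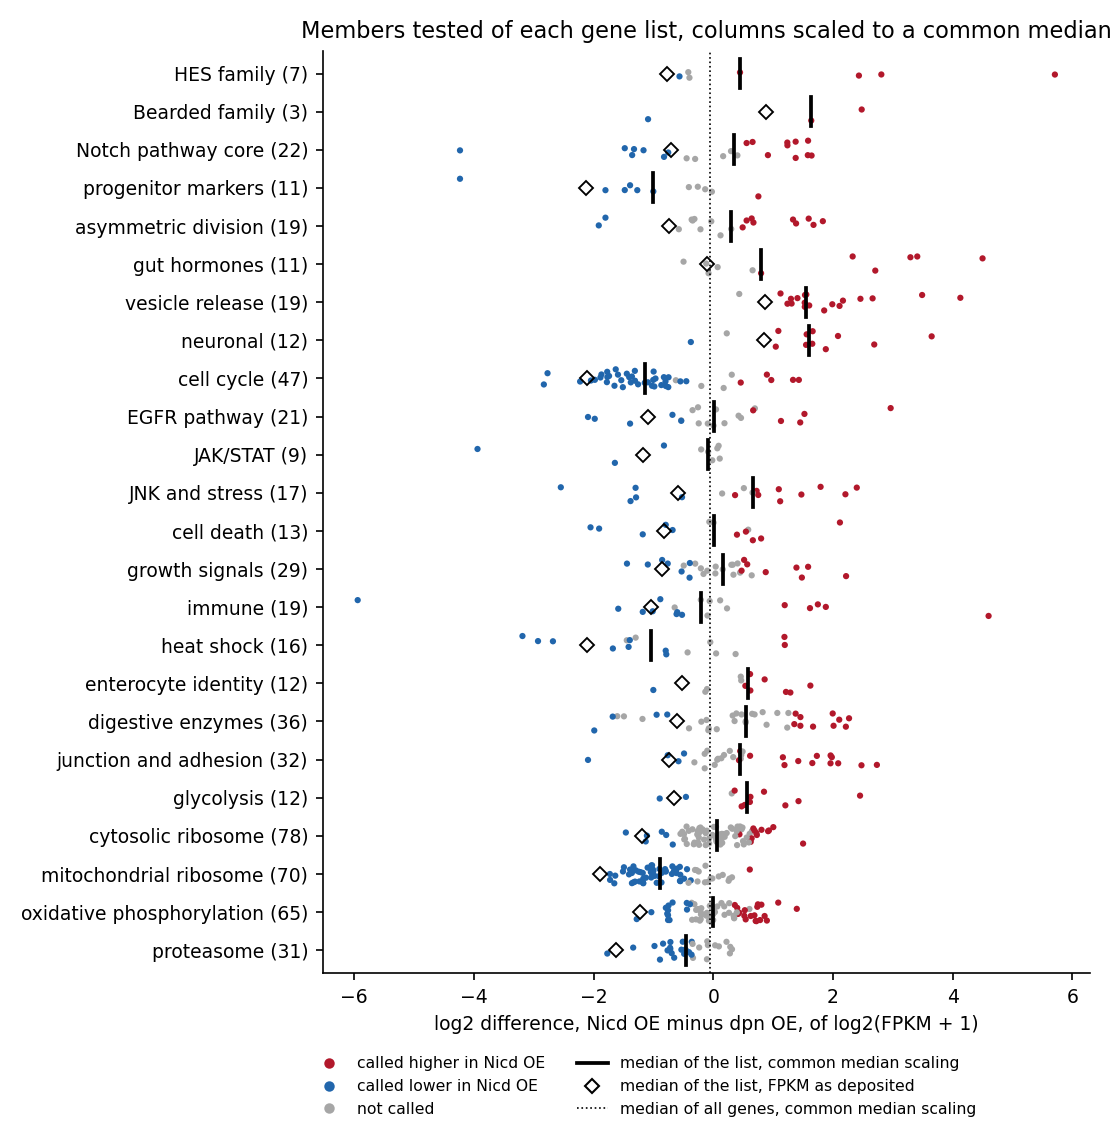
Log2 difference (Nicd OE minus dpn OE, common median scaling) of each tested member of 24 gene lists, with the number tested in brackets, the list median as a bar and the list median as deposited as a diamond. Vesicle release and neuronal genes lie right of the dotted median of all genes, and cell cycle genes, progenitor markers, mitochondrial ribosome and heat shock genes lie left of it.

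Markers of cells outside the midgut epithelium were low in both groups except moody, a receptor gene of glia, and some members of longer lists. Over 7 visceral muscle markers the summed level was 0.828 to 1.78 FPKM in Nicd OE and 0.492 to 4.29 FPKM in dpn OE, and over 8 haemocyte and fat body markers 0.843 to 1.22 FPKM in Nicd OE and 1.04 to 1.18 FPKM in dpn OE, with He at 0 in each library. Over 4 germline markers it was 0.341 to 0.447 FPKM in Nicd OE and 0.342 to 0.507 FPKM in dpn OE. Over 6 trachea and glia markers it was 75.2 to 145 FPKM in Nicd OE and 93.1 to 136 FPKM in dpn OE. moody made up nearly all of it, at 74.8, 114 and 144 FPKM in Nicd OE, against 92.5, 106 and 136 FPKM in dpn OE, and the others were at most 0.416 FPKM. A longer list of 15 muscle genes summed to 162 to 189 FPKM in Nicd OE and 125 to 141 FPKM in dpn OE, and to 2.36 to 3.76 FPKM in Nicd OE and 3.97 to 7.98 FPKM in dpn OE without the tropomyosin gene Tm1. A longer list of 16 haemocyte and fat body genes summed to 35.6 to 48.9 FPKM in Nicd OE and 54.6 to 64.0 FPKM in dpn OE, and to 2.06 to 2.94 FPKM in Nicd OE and 3.31 to 4.90 FPKM in dpn OE without the scavenger receptor gene crq. Their part in the results was not tested.

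The wild-type libraries, which entered no fit, show on which side each group stood. Of the 535 genes higher in Nicd OE with both scalings, the Ctrl mean lay between the 2 group means for 221, above both for 224 and below both for 90. Of the 2358 genes lower in Nicd OE, the Ctrl mean lay between the group means for 2173, or 92.2%. These positions use FPKM as deposited and so carry the general shift, and they are a description without a test.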

How the data were processed

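Values were analysed as deposited by the authors, as FPKM per gene and library, that is, relative to transcript length and reads per library. Reads were handled with STAR 2.6.1a, the BDGP6 build and DESeq2, per the submitters' processing notes, which give no role for each; the counting tool and the use of strand are not given in the sources used here. Among protein-coding genes, 63 of 69 that overlap antisense genes over their whole exon length had no reads in any library (91.3%), against 266 of 9168 free of overlap (2.90%), so reads shared by overlapping genes appear to have been left out without regard to strand. Identifiers were matched to the BDGP6.54 annotation (17252 of 17558); the other 306 stayed in the tests unnamed. Depth was estimated from the FPKM steps of low values, which covers counting error only.

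Genes with at least 1 FPKM in at least 3 of the 6 libraries were tested as log2(FPKM + 1), a scale that understates differences of low genes, with limma 3.58.1 in R 4.3.3 (linear model of 2 groups, 4 residual degrees of freedom, empirical Bayes moderation with a mean-variance trend, two-sided). P-values were adjusted by Benjamini-Hochberg over the 7092 genes, and genes were called under 0.05. The ± beside a log2 difference is the standard error. The fit was repeated after columns were scaled to a common median. The fit was tested on simulated data with 200 changed genes. Groups came from the titles. Genes were named by rule: label genes, the 12 largest rises and falls that were called with both scalings, did not overlap and reached a mean of 10 FPKM in the higher group, and members of gene lists. Members and lists were chosen with earlier results of these data known. No sequence is shown.

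Other scalings, pseudocounts, filters, a fit to all 15 libraries, a replicate block, no variance trend and leaving out each library were tried.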

Additional observations from a re-analysis of the deposited data

How the results depend on the processing

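Of 130 genes named with a test, 111 kept direction and call under the 4 other scalings, 127 when each library was left out of the deposited values, and 128 under the other settings. The scaling moved the number of genes most. With a common median 2158 genes were called higher and 2358 lower, with an equal sum 1173 higher and 3570 lower, with median-of-ratios factors 1902 higher and 2642 lower, and with quantile normalization 1971 higher and 2523 lower, against 535 and 4939 as deposited. The median difference over all genes was -1.04 as deposited, -0.05, -0.50, -0.16 and -0.10 under those 4 scalings in that order. Without the filter 869 of 14649 genes were called higher, and with a filter of 5 FPKM 282 of 4565. Leaving out 1 library gave 452 to 576 genes higher and 4564 to 5418 lower as deposited, and, chosen after seeing the data, 1832 to 2142 higher and 1948 to 2338 lower with a common median. Pseudocounts of 0.1 and 5, a fit to all 15 libraries and no variance trend kept both counts within 1.5 times.

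The difference of N turned to 0.40 with a common median, 0.27 with median-of-ratios factors and 0.13 with quantile normalization. That of ttk turned to 0.66, 0.53 and 0.46, and to 0.13 with an equal sum, and that of cwo to 0.45, 0.32 and 0.13 under the same 3 scalings as N. The cause of the smaller share of assigned reads in Nicd OE was not tested.

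The shared replicate numbers did not pair the libraries. Deviations of same-numbered libraries from their group means correlated at 0.06, 0.12 and -0.01 over genes. With a replicate block, 519 genes were called higher and 4851 lower as deposited, and 2093 higher and 2262 lower with a common median.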

Other observations

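A few genes, chosen after their values were seen, stood out by level. The noncoding RNA lncRNA:CR40469 had the highest value of each Nicd OE library, at 30983, 32363 and 27727 FPKM, against 8195, 4843 and 7630 FPKM in dpn OE. It was higher in Nicd OE by 2.17 on the log2 scale as deposited and 3.44 with a common median. RpL41, a cytosolic ribosomal protein gene of the lists, had the highest value of each dpn OE library. pAbp, which encodes the protein that binds poly(A) tails, was at 1908, 1362 and 2802 FPKM in Nicd OE, against 343, 318 and 248 FPKM in dpn OE, a log2 difference of 2.69 as deposited and 3.95 with a common median. cib, an actin-binding protein of the thymosin family, was at 1413, 2091 and 1929 FPKM in Nicd OE, against 504, 535 and 597 FPKM in dpn OE, a log2 difference of 1.71 as deposited and 2.97 with a common median.

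Orc6, a subunit of the origin recognition complex, was at 1.22, 1.41 and 16.4 FPKM in Nicd OE, against 5.44, 4.23 and 4.47 FPKM in dpn OE, so that Nicd OE replicate 3 stood apart from the other two. With a common median, the 58 genes tested on chromosome 4 had a median log2 difference of 0.46 and the 1166 on the X chromosome 0.14, against -0.10 for the 1190 on 2L.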
